A study of Mus musculus with 72 samples.

Results

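RNA was compared between RAW264.7 cells that carried a lentiviral short hairpin RNA against NCOR (shNCOR, 3 libraries) and the same line with a hairpin against GFP (shGFP, the control, 3 libraries). RAW264.7 is a macrophage-like tumour line from a BALB/c mouse. The genes described are the 10560 of 25124 in the RNA table that reached at least 1 RPKM (reads per kilobase of exon per M mapped reads, M standing for mega) in at least 3 of these 6 libraries, and the 6 libraries are part of a series of 72 samples. Of the genes left out, 9623 were listed at 0 in all 6 libraries. A further 3 libraries with a hairpin against SMRT (shSMRT) entered the same fit and are used for the test of a difference between the knockdowns, and chromatin accessibility (ATAC-seq) of the same 3 kinds of cell was read at promoters. The cells of all groups grew in ordinary medium with 10% serum and got no treatment before RNA extraction. The labels leave unsaid whether each population was 1 clone or a pool and how many hairpins were used per target. They also do not tie the 3 libraries of a group to independent cultures, and the p-values therefore reflect only library-to-library spread, which may be technical. Loss of the target and any other difference between the separately infected populations cannot be told apart. For ATAC the titles name the hairpins while the protocol speaks of wild-type cells, and the titles were followed.

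NCOR, encoded by Ncor1, and SMRT are large scaffold proteins that bind and activate the histone deacetylase HDAC3 and hold GPS2 and the TBL1 proteins. Nuclear receptors without ligand, and other DNA-bound factors such as BCL6 and AP-1 proteins, recruit these scaffolds to keep target genes silent. In macrophages the complex is known for its part in inflammatory and lipid genes, and its loss can also lower genes indirectly. Type I interferon, which macrophages make when they sense viral nucleic acid, acts through the receptor IFNAR, the kinases JAK1 and TYK2 and a transcription factor complex that includes IRF9 and binds a short DNA element (the interferon-stimulated response element, ISRE) in the promoters of antiviral genes.

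The targeted transcript was lower in every shNCOR library. Ncor1 (chr11, 62316426 to 62438515, mm10) was at 18.38, 20.19 and 18.66 RPKM in the shGFP libraries and at 3.613, 4.20 and 4.302 in the shNCOR libraries. The shNCOR mean was 0.212 of the shGFP mean, and the log2 fold change, computed here and below on RPKM plus 1, was -2.00 ± 0.06 (SE; limma, Benjamini-Hochberg adjusted p = 6.57e-10). Among the 9 subunits tested, the WD40 proteins Tbl1x (0.30) and Tbl1xr1 (0.51) and the associated Coro2a (0.68) were higher, Hdac3 was slightly lower (37.7 to 34.5 RPKM, -0.13 ± 0.03) and Gps2 was not called (0.11, adjusted p = 0.107). Of the other corepressors and coactivators, 1 of 25 was higher, the zinc finger repressor Bcl6 (14.7 to 23.4 RPKM, 0.63 ± 0.04), and 3 were lower, among them the Groucho protein Tle3 (-0.63). Over all genes tested 17.8% were called higher and 20.2% lower.

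Depth was 39.1 to 49.1 M reads in the 6 libraries, so a gene at 1 RPKM rests on 39.1 to 49.1 reads per kilobase of exon, and 91.2 to 92.8% of reads lay in exons of the table. Library 1 of shNCOR stood somewhat apart from libraries 2 and 3 of its group: the chi-square per gene of its counts was 9.65 and 8.99 against them, where the other pairs within a group gave 3.58 to 5.81. Of the markers of other cell types, 61 were under the filter; 42 of these were listed at 0 in all 6 libraries, defining ones such as Cd3e, Pax5, Ly6g, Flt3, Col1a2 and Epcam among them, and the highest value of any was 0.510 RPKM (Zbtb46). Of the dendritic cell markers 2 passed the filter, Itgax, which was higher, and Bst2, which was lower. Both are described below and are not specific to that cell type. Among T and NK cell markers 1 passed (0.25), as did 1 fibroblast, epithelial or endothelial marker (-0.03), and neither was called. Of the 18 monocyte and macrophage markers 14 were tested, and 4 were higher, 6 lower and 4 not called. Of all genes 17.8% were higher and 20.2% lower. The lineage factor Spi1 (287.1 and 286.8 RPKM) and Cd68 (489.8 and 494.7) were among the markers not called. The fractalkine receptor Cx3cr1 (131.7 to 76.7, -0.77), the growth factor receptor Csf1r (388 to 321, -0.27) and Cd14 (707 to 599, -0.24) were lower and Adgre1, which encodes F4/80, was higher (13.2 to 19.4, 0.52). In bulk RNA fewer cells of a kind and less RNA per cell cannot be told apart.

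In all 4010 genes (38.0% of those tested) were called at an adjusted p under 0.05, of which 1876 (17.8%) were higher and 2134 (20.2%) lower in shNCOR. Most calls were small. Of the raised genes 993 and of the lowered genes 1068 differed by less than 1.2-fold in mean RPKM, whereas 99 genes were at least 2-fold higher and 170 at least 2-fold lower. On the log2 scale of RPKM plus 1, 52 genes (0.492%) were higher and 112 (1.06%) lower by at least 1, and for all 164 the shNCOR and shGFP values were fully separated, as they were for 48.3% of all genes tested. The share of genes called lower was 14.5% under 5 RPKM and 26.3% over 100 RPKM, against 14.2% and 20.2% for genes called higher. Of 498 non-coding RNA genes 8.84% were called higher and 9.84% lower. The median log2 fold change over all genes tested was 0.002.

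**Figure D1:**
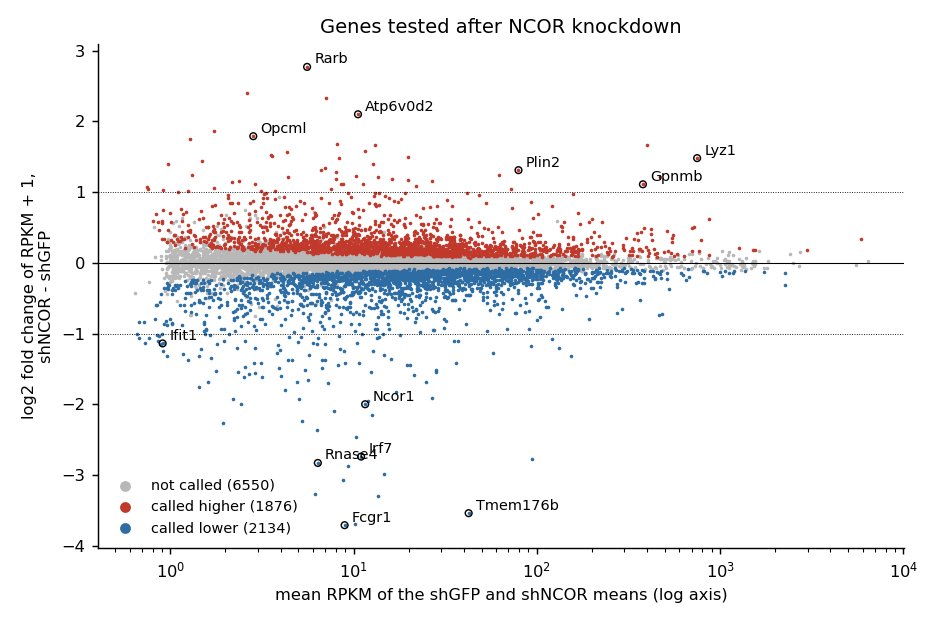
Each point is 1 of the 10560 genes tested, with the mean of the group mean RPKMs on a log axis and the log2 fold change of RPKM plus 1, shNCOR minus shGFP, on the y axis; dotted lines mark changes of 1. The 112 genes lowered by at least 1 reach -3.71 (Fcgr1) and the 52 raised by at least 1 reach 2.77 (Rarb).

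Antiviral genes that interferon induces were lower as a group. Of 51 listed antiviral effectors 47 were tested, and 44 were lower and 1 was higher in shNCOR, with a median log2 fold change of -1.05 against 0.002 for all genes. By at least 1, 26 of them were lower. Of all genes 20.2% were called lower, and 1.06% were lower by at least 1. Rtp4, which encodes a receptor-transporting protein that interferon induces, was at 21.86, 18.5 and 19.18 RPKM in shGFP and 0.636, 0.706 and 0.468 in shNCOR (-3.70 ± 0.08). Isg15, a ubiquitin-like protein that is joined to other proteins during infection, was at 8.54, 9.818 and 9.387 in shGFP and 1.598, 0.782 and 1.179 in shNCOR (-2.24 ± 0.14). For both genes the groups lay far apart, and the highest shNCOR library was under the lowest shGFP library. The oligoadenylate synthetases, which activate RNA decay through RNase L, were lower in Oas2 (13.2 to 2.34, -2.10) and Oas3 (19.6 to 4.35, -1.95). Ifit1, which binds viral RNA lacking a host cap mark, was low in the control already (1.57, 1.523 and 1.78 RPKM) and was at 0.17, 0.309 and 0.096 in shNCOR (-1.14 ± 0.10). Bst2, the tetherin that holds budding virions at the membrane, was abundant and at 131.9, 125.7 and 128.4 in shGFP and 60.91, 52.23 and 56.14 in shNCOR (-1.18 ± 0.05). The member that was higher was the transmembrane protein Ifitm2 (231 to 280 RPKM, 0.28). Ifi44 and Ifi44l, and the Oas genes, have related copies among which reads could be split.

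The lowering reached the sensing and the transcription factor steps of the same system, but less evenly. Irf7, the factor that amplifies interferon production, was at 20.79, 19.58 and 19.11 RPKM in shGFP and 2.024, 2.647 and 1.765 in shNCOR (-2.74 ± 0.09, adjusted p = 1.2e-09). Irf9, the DNA-binding part of the interferon-activated complex, fell from 18.5 to 7.18 (-1.25), and Irf8 (-0.69), Irf1 (-0.33) and Stat2 (-0.18) were lower by less. In all 8 of 13 IRF and STAT genes were lower and 1, Stat6, was higher (0.19), beside 20.2% and 17.8% of all genes. Stat6 overlaps the expressed Nab2 on the opposite strand, and the counting did not use strand. Of 20 nucleic acid sensors and adaptors 14 were lower, beside 20.2% of all genes. The RNA sensors Ddx58 (RIG-I, 8.58 to 1.53, -1.92), Dhx58 (-1.70) and Ifih1 (MDA5, -0.89), the adaptor Tmem173 (STING, -0.86) and the DNA sensor Cgas (-0.28) were among them. The endosomal receptor Tlr7 (0.21) and the DNA sensor Aim2 (0.19) were higher, and Tlr9 was not called (-0.06, adjusted p = 0.72).

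The 10 tested genes of interferon receptors, kinases and feedback inhibitors showed no common direction, and the ligand genes listed were under the filter. Ifnb1 was listed at 0 in 5 of the 6 libraries and at 0.033 RPKM in the sixth, a shGFP library, and Ifna4 was at 0 in all 6. The receptor chain Ifnar1 was at 10.38, 10.56 and 10.57 RPKM in shGFP and 13.52, 14.03 and 14.06 in shNCOR (0.37 ± 0.03), while Ifnar2 was not called (56.9 and 57.0, adjusted p = 0.973). The kinase Jak1 was higher (0.19). Of these 10 genes 3 were higher and 3 lower, beside 17.8% and 20.2% of all genes. The lowered members were the feedback inhibitors Usp18 (18.1 to 2.43, -2.47), which interferon also induces, and Socs3 (-0.88), and the interferon-gamma receptor chain Ifngr1 (-0.22). The feedback inhibitor Socs1 stayed under the filter, at 0.856, 0.736 and 0.776 RPKM in shGFP and 0.268, 0.261 and 0.396 in shNCOR.

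The immunity-related GTPases, which interferon-gamma and type I interferon both induce, were lower in all 4 members that passed the filter, 13 of 17 listed genes (with the guanylate-binding proteins) being under it: Igtp (6.23 to 1.59, -1.49), Ifi47 (-1.37), Irgm1 (-1.30) and Irgm2 (-1.21). Of the Schlafen genes 3 of 7 were lower, beside 20.2% of all genes. Slfn5, a growth regulator, was at 4.423, 4.856 and 4.657 RPKM in shGFP and 1.148, 1.198 and 0.983 in shNCOR (-1.42 ± 0.07).

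Genes of antigen presentation on MHC class I were lower in 17 of 22 members and higher in 2, with a median of -0.31. Of all genes 20.2% were lower and 17.8% higher. B2m, the invariant light chain, was at 629.3, 585.1 and 598.3 RPKM in shGFP and 386.5, 352.8 and 351.9 in shNCOR (-0.73 ± 0.04), and the groups did not overlap. The nonclassical heavy chains H2-T24 (17.1 to 1.46, -2.88) and H2-T23 (29.2 to 10.1, -1.44) were lowered more than the classical H2-K1 (89.3 to 68.0, -0.39) and H2-D1 (-0.22). The class I genes are near-identical in parts, H2-Q6 overlaps H2-Q8 and H2-D1 overlaps H2-L, so reads could be split among them. The transporter Tap1 (-0.57) and the transactivator Nlrc5 (-0.32) were lower too. The members that were higher, Calr (0.16) and Pdia3 (0.18), are chaperones of the endoplasmic reticulum that also serve other proteins, and the call on Calr ended under quantile normalization. The 3 catalytic subunits of the immunoproteasome, the form of the protease that cuts peptides for presentation, were lower: Psmb8 (79.2 to 49.7, -0.66), Psmb10 (45.7 to 35.0, -0.37) and Psmb9 (27.7 to 21.8, -0.33). The subunits they replace, Psmb5 (127 and 124.7 RPKM, adjusted p = 0.516), Psmb7 (adjusted p = 0.31) and Psmb6 (adjusted p = 0.925), were not called. Of the class II and costimulation genes 4 of 5 were lower, led by Icosl (1.71 to 0.129, -1.25), Cd40 (-0.84) and the class II chaperone Cd74 (127 to 72.2, -0.81).

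These falls were larger than those with the hairpin against SMRT. The median of the 47 antiviral effectors was -0.30 in shSMRT against shGFP, a comparison that shares the control libraries and in which 23.6% of all genes were called higher and 32.1% lower. Tested directly between the knockdowns, 45 of the 47 were lower in shNCOR than in shSMRT and 0 were higher, where 22.0% of all genes were lower and 29.6% higher in that contrast. With median-of-ratios scaling that contrast called 2618 genes higher and 2684 lower, against 3123 and 2323, so its balance depends on the scaling. Sensors (13 of 20 lower), IRF and STAT genes (9 of 13) and MHC class I genes (17 of 22) were also lower in shNCOR than in shSMRT. Irf7 was at 12.01, 12.07 and 13.3 RPKM in the shSMRT libraries, between the other groups. H2-T23, at 29.98, 30.02 and 26.93 in shSMRT, was close to its level in shGFP. Cxcl10, a chemokine that interferon induces, was at 5.41, 5.98 and 4.52 in shGFP, 0.838, 0.992 and 1.30 in shNCOR and 7.67, 8.69 and 7.42 in shSMRT, so that it was lowered (-1.62) in the first knockdown and raised (0.51) in the second.

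**Figure D2:**
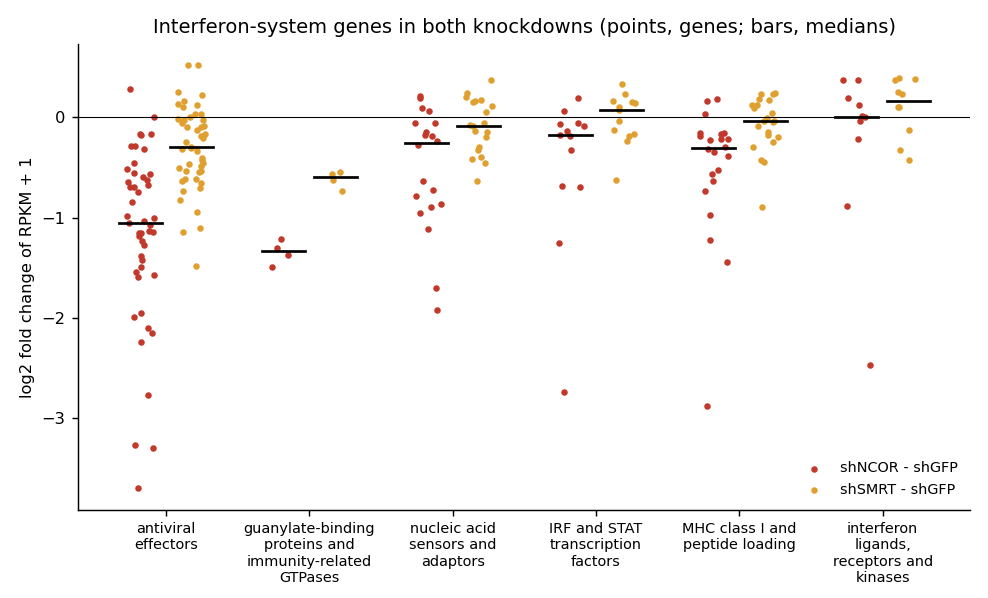
Each point is a tested gene of 1 of 6 lists of the interferon system, with its log2 fold change of RPKM plus 1 against shGFP in shNCOR (red) and shSMRT (yellow), and black bars are list medians. The antiviral effectors have medians of -1.05 and -0.30, while the interferon ligands, receptors and kinases have medians of 0.00 and 0.16; both knockdowns share the control libraries.

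The core letters of the ISRE were looked for in the promoters. The pattern GAAA, any 2 bases, GAAA was searched on both strands of the RefSeq windows from 250 bases before to 50 after each start (GRCm38.p6, the mm10 assembly). They occurred in 3.44% of all 32851 windows and in 3.76% of the 8359 tested genes with at least 1 window. They occurred in 15 of the 38 antiviral effectors with a window, in 19 of the 83 genes lowered by at least 1 and in 1 of the 40 raised by at least 1. Only 8359 of the 10560 tested genes, 40 of the 52 strongly raised and 83 of the 112 strongly lowered ones had a window, under 80% in each case, so these shares describe the genes found and are void as a check of the whole groups. The following stretches were picked, with their values seen, from lowered genes with a match: 3 antiviral effectors, 2 immunity-related GTPases and the chemokine Cxcl10. Rtp4 and Ifi44, with the largest falls, had no match or no window. Matches also occurred in genes that were not lowered, such as Ifitm2, which was higher, and Fcgr4 and Ctss, which were not called. Capitals mark the fixed letters of the matches, in the direction of the gene, and a match is no proof of a bound site.
Isg15, chr4:156200877-156200906, minus strand: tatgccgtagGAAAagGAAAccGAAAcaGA
Bst2, chr8:71537583-71537612, minus strand: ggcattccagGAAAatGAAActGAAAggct
Oas3, chr5:120777715-120777744, minus strand: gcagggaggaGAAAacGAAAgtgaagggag
Igtp, chr11:58199512-58199541, plus strand: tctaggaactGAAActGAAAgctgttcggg
Irgm1, chr11:48871431-48871460, minus strand: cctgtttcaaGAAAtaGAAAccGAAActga
Cxcl10, chr5:92349083-92349112, minus strand: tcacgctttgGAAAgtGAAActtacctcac

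The most raised gene was Rarb, which encodes retinoic acid receptor beta, a nuclear receptor whose own gene is a classical target of retinoic acid receptors. Rarb was at 0.694, 0.86 and 0.513 RPKM in shGFP and 10.35, 10.57 and 10.47 in shNCOR (2.77 ± 0.10, adjusted p = 2.98e-09), a ratio of means of 15.2. The libraries within shNCOR were close together and far above the control. With the hairpin against SMRT it was at 0.851, 0.763 and 1.212, and the difference between the knockdowns was 2.57 ± 0.10 (adjusted p = 4.92e-09). Its promoter holds a direct repeat with 5 bases between, the form of element that pairs of retinoic acid and retinoid X receptors bind (searched on both strands as GNTCA, any 6 bases, GNTCA). These letters occurred in 0.861% of all windows and in 0.646% of the tested genes with one. Besides Rarb, the phosphatase gene Acp5 was the only other one of the 40 strongly raised genes with a window to hold them. Of all genes called higher with a window 0.654% held them, and of those called lower 0.293%. The lowered Cd80 (-0.52) was among the latter.
Rarb, chr14:16575506-16575535, minus strand, repeat in capitals: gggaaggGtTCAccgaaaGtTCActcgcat
Of the related receptor genes, Rara (0.14, adjusted p = 0.091) was not called, and Rarg (-0.43) and the partner Rxra (3.43 to 1.69 RPKM, -0.72) were lower. Of 6 other retinoid genes tested 1 was higher, the transglutaminase Tgm2 (1.71 to 7.00, 1.56), and 2 were lower, the dehydrogenases Rdh11 (-0.19) and Dhrs9 (-0.16), beside 17.8% and 20.2% of all genes. The call on Dhrs9 did not hold under every alternative, and 14 of the 20 listed were under the filter.

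Among the nuclear receptors 7 of 18 were higher and 5 lower, Rarb, Rarg and Rxra included, beside 17.8% and 20.2% of all genes. The sterol receptor Nr1h3 (LXR alpha, 0.45), the clock repressor Nr1d1 (Rev-erb alpha, 1.34 to 2.58, 0.62) and the immediate early receptor Nr4a1 (0.63) were higher, and the fatty acid receptors Ppard (9.43 to 4.43, -0.94) and Pparg (1.22 to 0.527, -0.55) were lower. Clock genes were higher in 8 of 15 members and lower in 1. Bhlhe40 (0.83), Tef (0.69) and Dbp (0.52), outputs of the clock, rose, the activator Arntl (7.46 to 9.59, 0.33) rose as well, and the repressor Cry1 fell (-0.44). Part of Dbp and of Nr1d1 overlaps another expressed gene on the opposite strand, and the counting did not use strand.

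A further set of strongly raised genes stayed at or under control level in shSMRT. Ranbp3l, related to a nuclear export cofactor, was at 0.275, 0.073 and 0.115 RPKM in shGFP, 4.312, 5.552 and 5.405 in shNCOR and 0.022, 0.034 and 0.047 in shSMRT. S1pr1, a receptor for the lipid sphingosine 1-phosphate, was at 5.315, 5.101 and 5.358 in shGFP, 17.76, 17.55 and 17.72 in shNCOR and 4.994, 4.6 and 4.667 in shSMRT. Opcml, a cell adhesion molecule, was at 0.603, 0.758 and 0.802 in shGFP, 4.978, 5.115 and 4.757 in shNCOR and 0.374, 0.363 and 0.334 in shSMRT. Car2, the carbonic anhydrase that supplies acid in osteoclasts, went the opposite way in the second knockdown: it was at 193.7, 181.0 and 196.5 in shGFP, 590.1, 611.8 and 614.3 in shNCOR and 94.91, 90.02 and 91.44 in shSMRT. The differences between the knockdowns were 2.55 ± 0.10 for Ranbp3l, 1.70 ± 0.04 for S1pr1, 2.13 ± 0.08 for Opcml and 2.70 ± 0.04 for Car2.

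Others were raised in both knockdowns, several of them less in shNCOR. Atp6v0d2, a proton pump subunit of osteoclasts and fused macrophages, was at 3.225, 3.791 and 3.148 RPKM in shGFP, 18.69, 17.61 and 16.94 in shNCOR (2.10 ± 0.06) and 48.7, 47.25 and 45.57 in shSMRT. Lyz1, a lysozyme, was among the most abundant of them, at 391.2, 401.3 and 392.4 in shGFP, 1126, 1102 and 1081 in shNCOR (1.48 ± 0.04) and 2892, 2723 and 2998 in shSMRT; its reads may be shared with Lyz2, which was at 0.33. The elastase Mmp12 (0.0453 to 2.52), the gelatinase Mmp9 (0.080 to 1.86), the phosphatase Acp5 (3.33 to 12.9), the integrin Itgax (1.33 to 5.71) and the transcription factor Egr2 (1.38 to 5.78) rose in the same way and were each lower in shNCOR than in shSMRT, with differences of -1.67, -0.59, -1.13, -1.82 and -1.22 in that order. For other raised genes the difference between the knockdowns was not called. The lymphatic growth factor Vegfc was at 0.178 RPKM in shGFP and 3.30 in shNCOR (1.87), with a difference of -0.12 ± 0.09 between the knockdowns (adjusted p = 0.284). For the prostaglandin synthase Ptgs1 (3.89 to 12.7, 1.48) it was 0.16 ± 0.07 (adjusted p = 0.0844) and for the transcriptional inhibitor Id3 (9.91 to 29.8) -0.04 ± 0.08 (adjusted p = 0.702). The chemokine receptor Cxcr4, at 1.49, 1.93 and 1.61 in shGFP and 12.1, 13.3 and 11.9 in shNCOR (2.33 ± 0.07), was higher in shNCOR than in shSMRT by 0.58 ± 0.07.

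**Figure D3:**
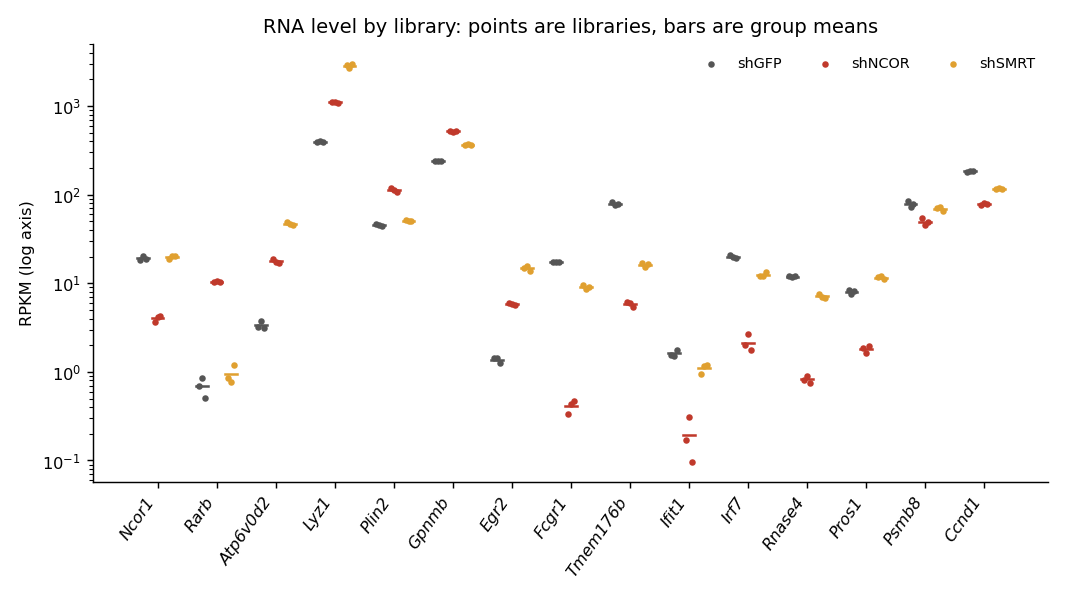
RPKM on a log axis for 15 genes, with 1 point per library and a bar at the mean of the 3 libraries in shGFP (grey), shNCOR (red) and shSMRT (yellow). Rarb is near 10 RPKM only in shNCOR among these groups, Fcgr1 and Irf7 are lowest there, and Atp6v0d2 and Lyz1 lie between the other groups.

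The genes that fell most outside the interferon lists encode surface and secreted proteins of myeloid cells. Fcgr1, the high-affinity receptor for immunoglobulin G, which interferon is known to induce as well, was at 17.4, 17.38 and 17.58 RPKM in shGFP, 0.339, 0.438 and 0.471 in shNCOR (-3.71 ± 0.05, adjusted p = 4.59e-12) and 9.516, 8.727 and 9.199 in shSMRT. Of the 8 Fc receptor and signalling genes tested 3 were higher and 3, with Fcgr1, lower, beside 17.8% and 20.2% of all genes. Fcgr3 (12.0 to 19.8, 0.68) was higher, the inhibitory Fcgr2b (-0.29) and the neonatal receptor Fcgrt (-0.39) were lower by less, and the signalling chain Fcer1g was not called (323 and 312, adjusted p = 0.284). Tmem176b, an ion channel of dendritic and myeloid cells, was at 81.91, 76.2 and 78.88 in shGFP, 6.156, 6.064 and 5.454 in shNCOR and 17.02, 15.21 and 16.49 in shSMRT. The neighbouring Tmem176a fell from 16.3 to 1.06 (-3.07), and Ms4a6b, Ms4a6c and Ms4a6d were lower by 0.36 to 0.63. Ltb, which encodes lymphotoxin beta, fell from 26.7 to 2.53 (-2.98), and its kin Tnf from 39.9 to 22.7 (-0.79). Rnase4, a secreted ribonuclease, was at 11.98, 11.76 and 12.07 in shGFP and 0.805, 0.909 and 0.751 in shNCOR (-2.83 ± 0.06), and it overlaps Ang, which fell too (-1.92).

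Ligands of the TAM receptors, which mediate the uptake of dying cells, moved in opposite directions. The receptor genes Mertk, Axl and Tyro3 were under the filter, with highest values of 0.02, 0.486 and 0.206 RPKM in the 6 libraries. Pros1 (protein S) was at 8.503, 7.503 and 8.153 RPKM in shGFP, 1.844, 1.64 and 1.937 in shNCOR and 11.8, 12.01 and 11.08 in shSMRT. Gas6 was at 7.049, 6.644 and 5.975 in shGFP, 19.08, 18.31 and 19.13 in shNCOR and 5.478, 4.871 and 4.69 in shSMRT. In shNCOR the first was lowered (-1.69 ± 0.06) and the second raised (1.39 ± 0.06), and in shSMRT the signs were the reverse (0.48 and -0.33). Angptl2, a secreted angiopoietin-like protein, was at 9.141, 10.04 and 8.23 in shGFP, 2.335, 2.072 and 2.196 in shNCOR and 30.23, 32.57 and 31.46 in shSMRT, a difference between the knockdowns of -3.34 ± 0.06.

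Lysosomal genes were mostly higher by small amounts. Of 39 tested hydrolases 24 were higher and 5 lower (median 0.14). Ctsd, an aspartic protease, was at 685.5, 684.4 and 678.7 RPKM in shGFP and 1109, 1024 and 1019 in shNCOR (0.62 ± 0.03), and Ctsl rose from 88.0 to 153.7 (0.80). The hydrolases Arsb (53.4 to 28.8, -0.87) and Ppt1 (-0.45) went the other way. Ppt1 overlaps Cap1 on the opposite strand, with highest values of 70.8 and 434 RPKM in that order. The counting did not use strand, so Ppt1 may hold reads of Cap1. Of 19 subunits of the vacuolar ATPase, the pump that acidifies lysosomes, 16 were higher and 0 lower, with Atp6v1a (111 to 159.7, 0.52) and Atp6v1b2 (113 to 161, 0.51) next after Atp6v0d2. Of 18 lysosomal membrane proteins 9 were higher and 3 lower, beside 17.8% and 20.2% of all genes. Gpnmb, a glycoprotein of phagocytes under lysosomal stress, rose most, from 237.3, 241.1 and 241.4 to 518.6, 517.1 and 519.4 RPKM (1.11 ± 0.02). Of the factors known to drive such genes, Mitf was higher (11.2 to 17.0, 0.57), Tfe3 slightly so (0.14), and Tfeb was not called (0.06, adjusted p = 0.327). The V-ATPase median was 0.30 in shSMRT beside 0.24 in shNCOR, and between the knockdowns 4 subunits were higher and 7 lower in shNCOR.

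Lipid genes split by pathway. Of 20 genes of mitochondrial fatty acid oxidation 14 were higher and 0 lower, with Acaa2, the thiolase (21.9 to 32.8 RPKM, 0.56), the carnitine carrier Slc25a20 (0.43) and Acads (0.35) at the top and a median of 0.19. Between the knockdowns 16 of the 20 were higher in shNCOR and 1 lower, where 29.6% of all genes were higher. The same contrast called 22 of 24 respiratory chain subunits and 23 of 26 mitochondrial ribosomal proteins higher and 0 lower. The direction is therefore not particular to fatty acid oxidation. Cpt1a, which admits fatty acids to mitochondria, was at 8.215, 9.204 and 9.181 RPKM in shGFP, 19.27, 18.29 and 17.99 in shNCOR and 9.316, 10.79 and 10.74 in shSMRT. The lipid droplet coat Plin2 showed the same order, at 46.49, 44.94 and 44.1, then 119.0, 113.0 and 108.7, then 52.4, 49.95 and 50.41. Both are known targets of the PPAR receptors, in whose list 6 of 13 genes were higher and 2 lower. Within it Cd36, a scavenger receptor that takes up fatty acids, rose (46.7 to 97.4, 1.05) and the carrier Fabp4 fell (2.37 to 0.708), while Angptl4 was not called (0.08, adjusted p = 0.48). Of 13 LXR targets 4 were higher and 2 lower, beside 17.8% and 20.2% of all genes. The cholesterol exporter Abca1 was at 0.333, 0.448 and 0.34 in shGFP and 2.347, 2.237 and 2.129 in shNCOR, Abcg1 rose from 27.6 to 39.9 (0.52) and Srebf1 was not called (-0.07, adjusted p = 0.0785). Fatty acid synthesis genes were lower in 8 of 13 members, with Elovl5 (-0.52) and Scd1 (59.8 to 42.4, -0.49) first, and cholesterol synthesis and uptake genes in 11 of 24, Fdps (-0.28) among them. Between the knockdowns 17 of these 24 were higher in shNCOR and 0 lower, with medians against shGFP of -0.23 in shSMRT and -0.09 in shNCOR.

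**Figure D4:**
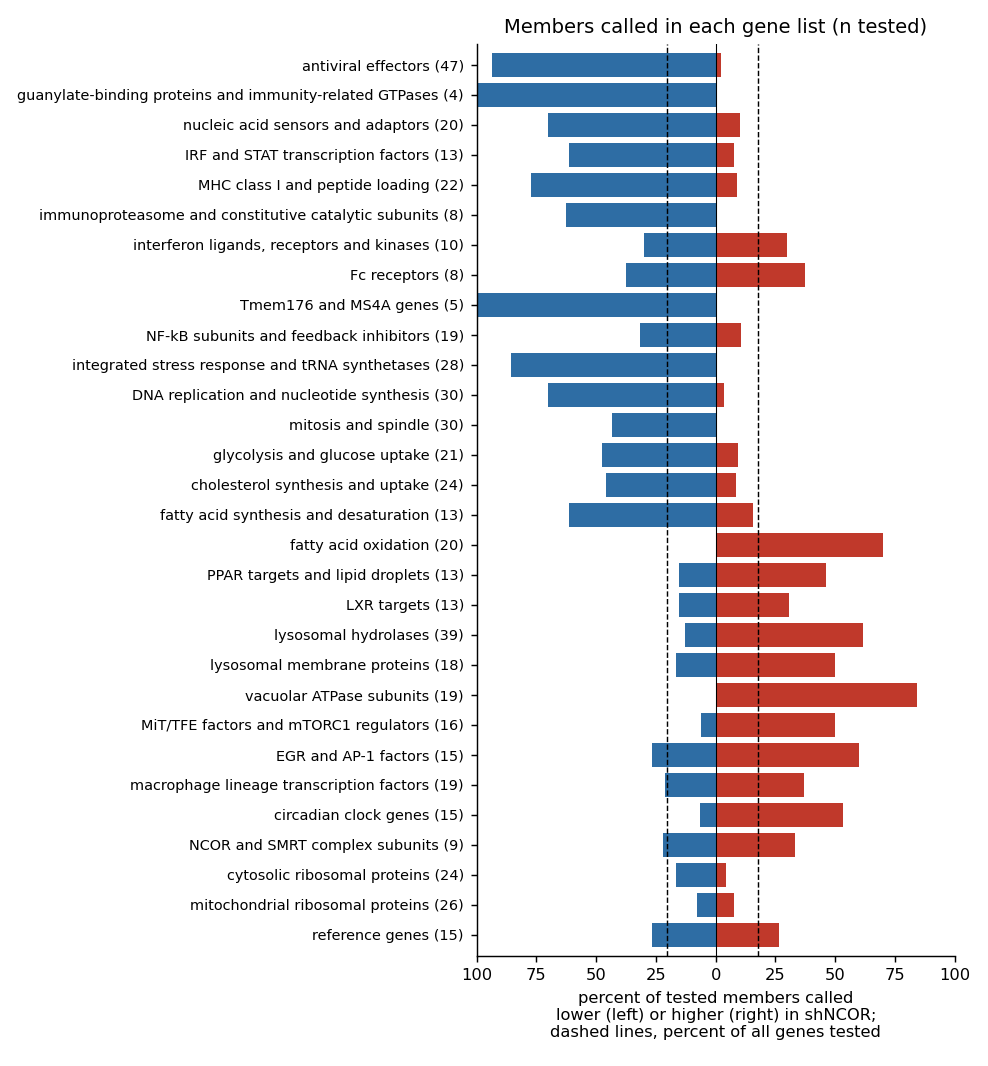
For 30 gene lists, bars give the percent of tested members called lower (blue, left) and higher (red, right) in shNCOR than in shGFP, with the number tested in brackets; dashed lines are the shares of all genes, 20.2% lower and 17.8% higher. Antiviral effectors (44 of 47 lower) and vacuolar ATPase subunits (16 of 19 higher) lie far from these lines, and reference genes (4 higher and 4 lower of 15) lie near them.

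Transcription factors of the macrophage lineage were higher in 7 of 19 cases and lower in 4, beside 17.8% and 20.2% of all genes. Id3 and Id2 (4.25 to 11.9, 1.29) rose together with Runx2, an osteoblast and myeloid factor that was near 0 in the control (0.107, 0.123 and 0.219 RPKM) and at 1.417, 1.193 and 1.484 in shNCOR. Mef2c (-0.49) and Runx1 (-0.36) were lower and Cebpb was not called (-0.02, adjusted p = 0.652). Among Krüppel-like factors Klf4, which promotes monocyte differentiation, was at 8.071, 8.967 and 8.483 in shGFP and 2.69, 2.234 and 2.019 in shNCOR (-1.52 ± 0.08), while Klf6 (0.51) and Klf10 (0.48) rose. EGR and AP-1 genes were higher in 9 of 15 members and lower in 4. Egr1 (0.43) and Junb (0.40) rose with Egr2, and Fosl1 fell (4.88 to 2.72, -0.66). Fosl1 overlaps the expressed Ccdc85b on the opposite strand, so reads could be shared. Egr2 was at 14.89, 15.7 and 13.91 in shSMRT, above the shNCOR libraries. Of the MAPK phosphatases and Sprouty genes, feedback inhibitors of ERK signalling, 6 of 11 were lower and 2 higher. Dusp6 was at 8.713, 9.982 and 8.525 in shGFP and 3.378, 3.766 and 3.448 in shNCOR (-1.15), whereas Dusp5 (1.22 to 3.00, 0.85) and Dusp1 (0.60) rose.

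Inflammatory genes showed no common direction. The shares over all genes were 17.8% higher and 20.2% lower. Of 19 NF-kB subunits and inhibitors 6 were lower, Tnip3 (25.1 to 14.2, -0.78) and Nfkbia (-0.28) among them, and 2 were higher, Bcl3 (0.40) and Otulin (0.12). Of 9 chemokines 4 were higher and 4 lower: besides Cxcl10, Ccl3 (-0.54) and Ccl4 (-0.46) fell, and Ccl2, which attracts monocytes, rose from 6.69 to 15.7 RPKM (1.12) and Ccl9 from 106 to 208 (0.97). Ccl2 reached 83.12, 84.36 and 72.35 in shSMRT, and each of the 9 chemokines was lower in shNCOR than in shSMRT. Among receptors, Tlr4, which senses bacterial lipopolysaccharide, rose from 9.108, 9.122 and 9.064 to 16.66, 17.63 and 16.54 (0.83 ± 0.04), the beta-glucan receptor Clec7a rose from 5.72 to 20.4 (1.67), and the complement receptor C5ar1 from 8.45 to 17.7 (0.99). The vascular endothelial growth factor receptor Flt1 (4.21 to 0.880, -1.47), the growth factor Igf1 (8.57 to 2.90, -1.30), the chemokine receptor Cxcr3 (2.44 to 0.488, -1.22), the complement protease C1ra (4.42 to 1.37, -1.20) and the urokinase receptor Plaur (30.8 to 15.2, -0.98) fell. Of 21 cytokine and growth factor receptors 10 were lower and 6 higher, Tgfbr1 (0.75) and Csf2rb2 (0.97) among the latter. The integrin Itga6, a laminin receptor, was at 1.06, 1.37 and 1.2 in shGFP, 0.139, 0.116 and 0.069 in shNCOR and 2.30, 2.42 and 2.61 in shSMRT. The tetraspanin Cd81 was lower in both knockdowns (-1.42 and -1.41, with a difference of -0.01 ± 0.08, adjusted p = 0.958).

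Genes of DNA replication were mostly lower by small amounts. Of 30 genes of DNA replication and nucleotide synthesis 21 were lower and 1 higher (median -0.15), and of 30 of mitosis 13 were lower and 0 higher (median -0.06), where 20.2% of all genes were lower. The medians were -0.26 and -0.23 in shSMRT, and between the knockdowns 16 and 23 of these genes were higher in shNCOR and 0 lower. Gins1 (35.3 to 26.1, -0.43) and Cenpa (-0.36) had the largest falls in each list, and Mki67, the proliferation antigen, was not called (0.13, adjusted p = 0.0907). Of 20 cyclins, CDKs and CDK inhibitors of G1, 3 were higher, 6 lower and 11 not called. Ccnd1, the cyclin that starts the cell cycle, had the largest change of these, at 182.2, 184.3 and 185.6 RPKM in shGFP and 77.33, 81.44 and 79.34 in shNCOR (-1.20 ± 0.03), and was at 116.7, 118.6 and 114.9 in shSMRT. It overlaps LTO1 on the opposite strand, which fell by 1.10. Of 28 genes of the integrated stress response and tRNA charging 24 were lower and 0 higher (median -0.21), with Trib3 (-0.74), Chac1 (-0.67) and Phgdh, the first enzyme of serine synthesis (168.5 to 106.9, -0.65), in front and Atf4, their known activator, at -0.25. This list had a median of -0.40 in shSMRT, and the test between the knockdowns called 20 of its genes higher in shNCOR and 2 lower. Glycolysis genes were lower in 10 of 21 members and higher in 2. Lists with little change against shGFP were the cytosolic ribosomal proteins (1 higher and 4 lower of 24) and the mitochondrial ribosomal proteins (2 and 2 of 26). Of the usual reference genes Actb was lower (2493 to 2019, -0.31), and B2m, described above, would shift any value scaled to it. The transferrin receptor Tfrc (77.8 to 126, 0.69) and the heat shock protein Hsp90aa1 (348 to 486.5, 0.48) were single raised genes in otherwise mixed lists.

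Some strongly changed genes lie side by side. Among 9115 pairs of neighbouring tested genes, 18 had both members changed by at least 1, and 15 of these moved in the same direction, 14 down and 1 up. These 15 pairs hold 29 of the 164 strongly changed genes, and in 3 of them the genes overlap, so that shared reads cannot be told apart from a shared change. The pairs with the largest summed changes were Tmem176b and Tmem176a on chr6, 109 bases apart, Ifi44 and Ifi44l on chr3, Rnase4 and Ang on chr14, Lst1 (-1.52) and Ltb on chr17, and H2-T24 and H2-T23 on chr17. Members of such pairs are often gene duplicates, and no count of pairs under chance was made.

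Accessibility at the promoter changed in the direction of the RNA at many strongly changed genes. The nearest ATAC peak within 1 kb of the start was taken for 8721 tested genes, of which 255 (2.92%) had a peak called higher and 85 (0.975%) lower in shNCOR. Over all 51021 peaks fitted, 4.61% were higher and 4.02% lower. With median-of-ratios scaling the promoter counts were 137 and 117, so the balance of directions depends on the scaling. Of 45 strongly raised genes with a promoter peak 33 had a higher peak and 0 a lower one, and of 82 strongly lowered genes 0 had a higher and 35 a lower one. At genes with smaller RNA calls the directions matched less well. Of 1561 genes raised by under 1, 90 had a higher and 0 a lower peak. Of 1734 genes lowered by under 1, 25 had a higher and 37 a lower peak. Of 5299 genes not called in RNA 107 had a higher and 13 a lower peak. The values are reads scaled to 10 M per library. At Rarb the peak (chr14, 16575333 to 16575757, which covers the repeat shown above) was at 44.73, 33.75 and 23.98 in shGFP and 183.5, 123.8 and 168.7 in shNCOR (2.08 ± 0.22, adjusted p = 7.26e-10). At Atp6v0d2 it was at 30.19, 30.94 and 35.96 in shGFP and 105.6, 125.4 and 111.6 in shNCOR (1.67). At Tmem176b it was at 112.9, 137.8 and 116.2 in shGFP and 19.8, 9.9 and 15.22 in shNCOR (-2.70 ± 0.28). Peaks at Rcsd1 (-1.94), Angptl2 (-1.83), Calhm6 (-1.73), Icosl (-1.41) and Pros1 (-1.04) were lower. Of the 26 antiviral effectors lowered by at least 1 in RNA, 20 had a promoter peak, of which 10 were lower, 0 higher and 10 not called. Ifi44 (-1.47), Rtp4 (-0.80) and Oas2 (-0.43) had lower peaks, as did Usp18 (-0.49), whereas the peaks at Bst2 (0.02, adjusted p = 0.946), Samd9l (0.19, adjusted p = 0.687) and Oas1g (-0.11, adjusted p = 0.821) were not called. Those at H2-T23 (-0.01) and Cxcl10 (-0.24, adjusted p = 0.478) were not called either. Fcgr1, the most lowered gene in RNA, had a smaller fall at its promoter, from 210.2, 242.8 and 205.6 to 132.0, 173.3 and 120.5 (-0.62). The peaks at Psmb8 (0.04, adjusted p = 0.945) and Ccnd1 (-0.37, adjusted p = 0.0869) were not called.

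**Figure D5:**
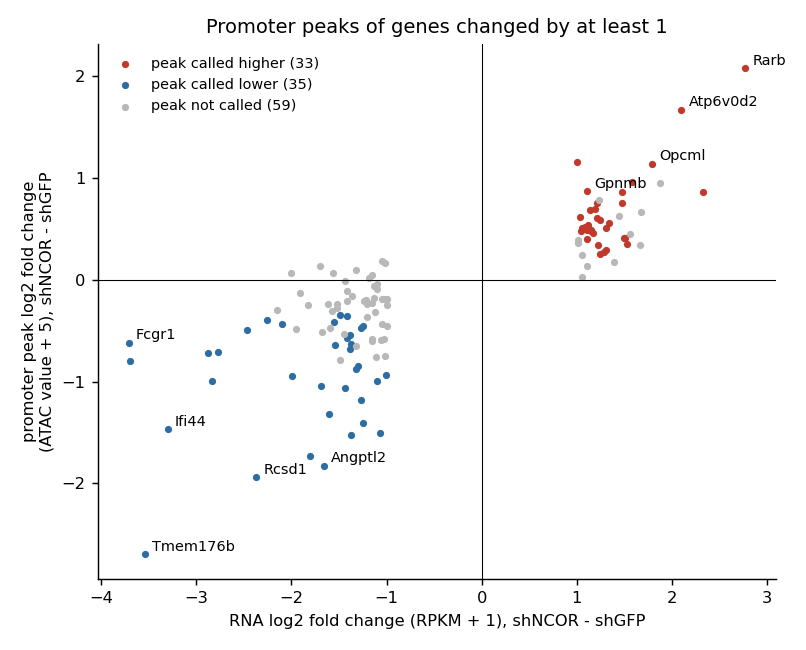
For the 127 genes changed by at least 1 in RNA that have a promoter peak, the x axis gives the RNA log2 fold change (RPKM plus 1) and the y axis that of the nearest ATAC peak (value plus 5), both shNCOR minus shGFP, coloured by the call on the peak. Among these 127 genes, none raised in RNA has a peak called lower and none lowered in RNA has a peak called higher. Of their peaks 59 were not called.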

How the data were processed

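The 6 RNA libraries compared, 3 with shNCOR and 3 with shGFP, and 3 with shSMRT were grouped by their titles. The deposited values are RPKM; per the file headers they come from HOMER, with reads on either strand summed over the exons of 1 RefSeq transcript (mm10) for each gene, so antisense and overlapping genes share reads. The ATAC values deposited by the authors are reads per merged peak scaled to 10 M reads, per the file headers, for 51983 peaks (1 further peak held no number). Tools named without a version in the submitters' processing notes are HISAT2, Bowtie2, MACS2, HOMER and DESeq2, and their roles are not given. Low RPKM values were whole multiples of 1 read within 0.1 read for 100% of values, which gave the depth. Left out were 54 samples of ChIP-seq or CUT&Tag.

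The 9 RNA libraries were fitted together on log2(RPKM + 1) by limma 3.58.1 under R 4.3.3, using its intensity trend. Adding 1 to the RPKM understates changes of low genes. A gene was called where its p, adjusted over the 10560 genes by Benjamini-Hochberg, was under 0.05. ATAC peaks reaching 10 in 3 or more of 6 libraries were fitted on log2(value + 5). Members and lists were chosen with earlier results of these data known. Genes named are Ncor1, the 30 most raised and 30 most lowered called genes whose groups did not overlap (unnamed and small RNA genes aside), up to 5 raised and 5 lowered called members and preset members per list, and the leading neighbour pairs. Some genes this rule names are not reported here. LTO1, which overlaps Ccnd1, was named after its values were seen. In simulated data 50 genes were changed at each fold, and every gene had the same fixed spread. Of these the fit recovered 26% at 1.2-fold, 98% at 1.5-fold and 100% at 2-fold, among 10595 genes. It gave 11 false calls among 10396 unchanged genes. In the real data 38.0% of genes were called, so the adjusted cutoff was less strict and these shares do not carry over to it. Alternatives were other pseudocounts, filters and scalings, fits on 6 libraries, array weights, voom on the recovered reads, a replicate block, other promoter windows and leaving out each library. Figures were drawn with matplotlib 3.10.9.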

Additional observations from a re-analysis of the deposited data

How the results depend on the processing

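Of 501 named genes tested, 457 were called, and 405 kept call and direction under all 17 RNA alternatives. The call on Ctsb, a cathepsin (0.09), ended under 6 alternatives, 4 of them leaving out 1 library, and its value changed sign to -0.00 under quantile normalization (adjusted p = 0.981), and the cause was not tested. All 164 strongly changed genes stayed called in the same direction under each alternative that tested them. The counts of 52 raised and 112 lowered by at least 1 were 34 and 74 with a filter of 5 RPKM, which tests fewer genes, 94 raised with a pseudocount of 0.1, and 99 and 172 with voom on recovered reads. All called genes numbered 2103 higher and 2017 lower under quantile normalization, and 1528 to 1801 higher and 1801 to 2107 lower without single libraries. Deviations of same-numbered RNA libraries had correlations of 0.11, 0.07 and -0.01, and those of other-numbered ones -0.13 to 0.08. With 3 libraries per group this cannot settle whether the numbers pair the libraries. A replicate block gave 1982 higher and 2238 lower, 52 and 112 by at least 1, and for ATAC promoters 196 and 85. ATAC promoter peaks were less stable: the 255 higher and 85 lower were 137 and 117 with median-of-ratios scaling. Leaving out single ATAC libraries gave 92 to 233 higher and 47 to 78 lower, 21 to 28 higher at strongly raised genes and 25 to 34 lower at strongly lowered ones. Counts moved by over 1.5 times without shGFP replicate 1 (47 lower), 2 (92 higher, 55 lower and 21 at raised genes) or 3 (111 and 47), and without shNCOR replicate 1 (166 higher) or 2 (117 higher). Those fits have fewer samples. Depth limits the genes under 1 RPKM. Changes of 1.2-fold were mostly missed in simulated data, but few genes were changed there. In the real data 993 raised and 1068 lowered calls were under 1.2-fold, so the simulated share sets no limit here.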
